A study of Mus musculus with 4 samples.

Results

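Stem-like and memory T cell genes are described here across 4 RNA-seq libraries of tumour-infiltrating cells. The set holds 8 genes chosen by name and matched by symbol: Tcf7, Lef1, Id3, Bach2, Slamf6, Satb1, Foxo1 and Cd27. All 8 were found among the 21959 genes of each deposited table. The libraries came from mice bearing MC38 tumours, a mouse colon carcinoma model, and each was made either from dendritic cells (DCs) or from CD3+ T cells of the tumour. The mice of the control groups received PBS, and those of the treated groups received X-Ray+O-IMDQ, which the series describes as a prodrug that radiotherapy activates. Cells were taken at 72 h, counted from the second treatment. IMDQ is known as an imidazoquinoline agonist of endosomal toll-like receptors. The sources used here do not give the strain, the age, the irradiation dose or the number of animals behind a library. Each of the 4 groups (PBS T cells, treated T cells, PBS DCs and treated DCs) has 1 library, so each comparison is between libraries, there is no replicate check, and no p-value is given. The design names no X-ray-only or prodrug-only group among the 4, so irradiation and drug cannot be told apart.

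Tumour T cells under lasting antigen stimulation are known to contain a small self-renewing pool, called stem-like or progenitor cells, which gives rise to effector and exhausted cells. The transcription factor TCF-1, encoded by Tcf7, marks this pool and sustains it together with its relative LEF-1. FOXO1, BACH2, SATB1 and ID3 are further nuclear regulators that favour quiescence, memory or long life, and SLAMF6 and CD27 are surface receptors by which such cells are often recognised. AKT phosphorylates FOXO1 and sends it out of the nucleus, so transcript level is only one layer of its control.

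The libraries held between 14056428 counts (treated DCs) and 23797357 counts (PBS DCs). A library with 0 counts of a gene allows up to 3 counts, which is 0.161 CPM, the count scaled to a library total of 1e+06, in PBS T cells, 0.162 in treated T cells, 0.126 in PBS DCs and 0.213 in treated DCs. Ratios are treated over PBS after TMM scaling, with an exact conditional binomial 95% interval, and a gene was called when the libraries were at least 2-fold apart and the interval excluded 0 on the log2 scale. These intervals and floors describe counting error alone, since PCR copies counted without molecular identifiers are not separate molecules. Counting error was not the whole of the difference between libraries: of 8606 genes with at least 100 counts in PBS T cells, 342 had 0 counts in treated T cells, and of 7856 such genes in PBS DCs, 942 had 0 in treated DCs. The T cell label was met by its markers, with all 11 listed marker genes present in both libraries at a sum of 12736 CPM with PBS and 14221 CPM with treatment. Cd8a had 46523 and 47563 counts and Cd4 had 17 and 252, so CD8 transcripts prevailed in both T cell libraries. In the libraries labelled DCs, the defining DC genes Flt3 and Zbtb46 had 16 and 9 counts with PBS and 69 and 57 with treatment. Of the other conventional DC markers, Itgax had 3982 and 3547 counts, Xcr1 213 and 152, and Clec9a 154 and 952. The treated DC library was the smaller one. After scaling, the log2 ratios of Itgax and Xcr1 were 0.65 and 0.33, above 0 and not called. Cd209a had 9441 and 329 counts and Batf3 479 and 0. H2-Ab1 and Cd74 had the most counts of these markers and were lower with treatment.

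Within T cells the comparison sets the treated library against the PBS library. Tcf7 was 2.53-fold higher in the treated library and Foxo1 was 3.26-fold lower. The other 6 genes lay less than 2-fold apart: Id3, Bach2, Lef1, Cd27 and Satb1 had ratios above 1 and Slamf6 had a ratio below 1. Thus 1 of 8 genes was called higher and 1 of 8 lower, where 18.3% of the 11058 genes tested were called higher and 25.4% lower. Both shares among the 8 genes were no larger than in the background, so the number of calls is not a result about this set. With a 1.5-fold threshold 3 of 8 were higher, where 27.1% of all genes were, and with a 4-fold threshold 0 of 8 were called, where 9.07% of all genes were higher and 16% lower. The median log2 ratio of the 8 genes was 0.33, and that of all genes tested was -0.07. Fewer cells of a type and less RNA per cell cannot be told apart in such bulk libraries.

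**Figure D1:**
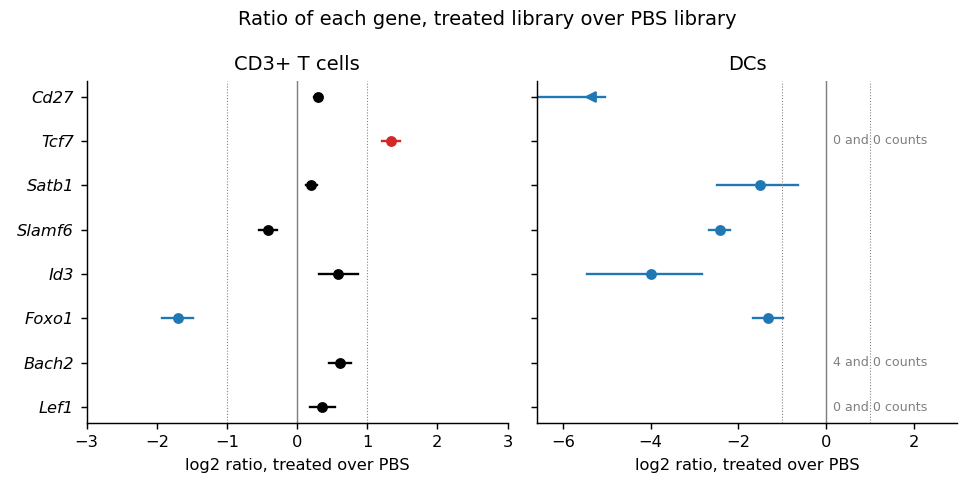
Log2 ratio of the treated over the PBS library for each gene in CD3+ T cells (left) and DCs (right), with 1 library per group; points are ratios of TMM-scaled counts, lines are exact 95% counting intervals, dotted lines mark 2-fold, red and blue mark genes called higher and lower, and the triangle marks a ratio at the floor of 3 counts. In T cells Tcf7 lay at 1.34 and Foxo1 at -1.70 with the other genes between the dotted lines, whereas in DCs the 5 genes with enough counts all lay below 0.

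Tcf7 (ENSMUSG00000000782, chromosome 11, 52143198 to 52174158, minus strand; all gene positions are as listed in the tables, for which the submitters' processing notes name GRCm39) encodes TCF-1, a DNA-binding HMG-box factor of the Wnt pathway. It had 650 counts in PBS T cells, 1656 in treated T cells and 0 in both DC libraries. In FPKM, which scales the count to gene length and library total, its level was 11.5 with PBS and 29.7 with treatment. The treated T cell library was thus the higher one, and the log2 ratio was 1.34 (95% interval 1.2 to 1.47.) Among all genes with a symbol, Tcf7 stood at rank 3231 by FPKM in PBS T cells and at rank 1816 in treated T cells. The ratio held its call when counts were scaled to the 11 T cell markers, at 1.2.

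Lef1 (ENSMUSG00000027985, chromosome 3, 130904120 to 131018005, plus strand) encodes the close relative of TCF-1 that binds the same DNA core. Its counts were 472 in PBS T cells, 610 in treated T cells and 0 in both DC libraries. Its log2 ratio in T cells was 0.36 (95% interval 0.18 to 0.53), and it was not called. Per length, Tcf7 exceeded Lef1 by 4.01-fold in PBS T cells and by 7.90-fold in treated T cells. The 2 factors therefore differed between the libraries by unequal amounts, with the larger ratio for Tcf7.

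Foxo1 (ENSMUSG00000044167, chromosome 3, 52175757 to 52260642, plus strand) encodes a forkhead factor that maintains naive and memory T cells and activates genes of homing and survival. It had 755 counts in PBS T cells and 234 in treated T cells, and 382 counts in PBS DCs and 87 in treated DCs. The treated library was the lower one in both cell types. In T cells the log2 ratio was -1.70 (95% interval -1.92 to -1.49), and in DCs it was -1.32 (95% interval -1.67 to -0.98.) The level in T cells went from 4.67 to 1.46 FPKM, and the ratio of Tcf7 to Foxo1 per length was 2.47 with PBS and 20.3 with treatment. After centring on the median of all genes the ratio in DCs was -0.96 and no longer called.

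Id3 (ENSMUSG00000007872, chromosome 4, 135870808 to 135873066, plus strand) encodes an inhibitor of E-protein transcription factors and is linked to memory precursors. It had 184 counts in PBS T cells and 279 in treated T cells, the fewest of the 8 genes in PBS T cells. Its log2 ratio was 0.59 (95% interval 0.31 to 0.86), and it was not called. Bach2 (ENSMUSG00000040270, chromosome 4, 32238804 to 32586108, plus strand) encodes a repressor that restrains effector differentiation by competing at AP-1 sites. It had 571 and 879 counts in PBS and treated T cells, and 4 and 0 in the DC libraries. Its log2 ratio in T cells was 0.61 (95% interval 0.46 to 0.76), so both genes were near 1.5-fold higher and neither reached 2-fold.

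Satb1 (ENSMUSG00000023927, chromosome 17, 52043215 to 52140318, minus strand) encodes a chromatin organiser of the T lineage that represses Pdcd1. It had 2290 counts in PBS T cells and 2656 in treated T cells, against 65 and 13 in the DC libraries. The log2 ratio in T cells was 0.20 (95% interval 0.12 to 0.28), the ratio nearest to 0 of the 8 genes. Cd27 (ENSMUSG00000030336, chromosome 6, 125209585 to 125213973, minus strand) encodes a costimulatory receptor of the TNF receptor family whose ligand is CD70. With 5188 counts in PBS T cells and 6420 in treated T cells it was the most abundant of the set, at 119 and 149 FPKM. It supplied 45.8% of all counts of the 8 genes in PBS T cells and 47.0% in treated T cells. Its log2 ratio was 0.29 (95% interval 0.24 to 0.35), and 1 listed gene, Vamp1 on the opposite strand, overlaps it, with 284 and 165 counts in the same libraries. The sources used here do not say whether counting used strand.

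Slamf6 (ENSMUSG00000015314, chromosome 1, 171745082 to 171780737, plus strand) encodes a self-binding receptor of the SLAM family that is found on T, B and NK cells and on some DCs. It had 1218 counts in PBS T cells and 923 in treated T cells. Besides Foxo1 it was the member with a ratio below 1 in T cells, at a log2 ratio of -0.41 (95% interval -0.54 to -0.29.) It was not called. Slamf6 and Tcf7, often used side by side to mark stem-like cells, thus had ratios on opposite sides of 1 between these libraries.

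Ordered by FPKM, PBS T cells ran Cd27 (119), Tcf7 (11.5), Satb1 (6.45), Slamf6 (6.03), Id3 (5.51), Foxo1 (4.67), Bach2 (3.08) and Lef1 (2.88). Neighbours from Satb1 to Foxo1 did not differ beyond their counting intervals, nor did Bach2 and Lef1. Treated T cells ran Cd27 (149), Tcf7 (29.7), Id3 (8.44), Satb1 (7.56), Bach2 (4.79), Slamf6 (4.61), Lef1 (3.76) and Foxo1 (1.46). There the intervals of Id3 and Satb1 overlapped, as did those of Bach2 and Slamf6. Cd27 and Tcf7 held the top ranks in both libraries, and Foxo1 went from the sixth place to the last. Summed over the 8 genes, expression was 607 CPM in PBS T cells and 740 CPM in treated T cells.

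**Figure D2:**
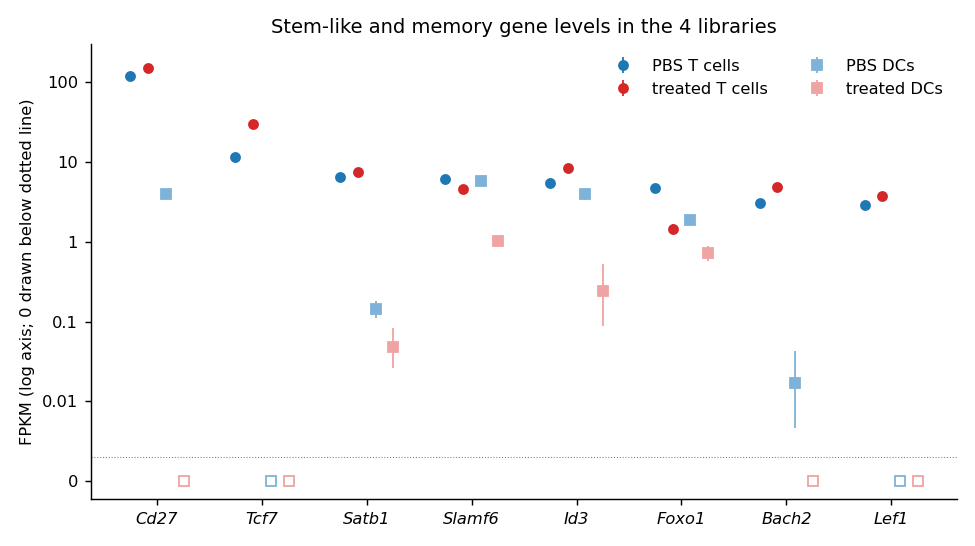
FPKM of the 8 genes on a log axis in PBS T cells, treated T cells, PBS DCs and treated DCs, 1 library each; bars are exact Poisson 95% intervals of the count, and open squares below the dotted line mark libraries with 0 counts. Cd27 stood highest in T cells, at 119 and 149 FPKM, Slamf6 reached 5.69 FPKM in PBS DCs, close to the 6.03 FPKM of PBS T cells, and Tcf7 and Lef1 had 0 counts in both DC libraries.

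The same genes were read in the DC libraries, where T cell genes serve as a check on cell identity. The cell types are in separate tables, which may have been made separately, so levels across them are descriptions by total-count CPM. Tcf7 and Lef1, with 0 counts in both DC libraries, were 276-fold and 201-fold higher in T cells with PBS, taking the DC library at the floor of 3 counts. The interval limits nearest to no difference were 224-fold and 163-fold. Bach2 was 182-fold higher in PBS T cells than in PBS DCs by CPM, with an interval from 70.8-fold to 671-fold. Satb1 was 45.0-fold and Cd27 30.5-fold higher in PBS T cells than in PBS DCs. Foxo1 was 2.52-fold higher in T cells with PBS and 2.05-fold higher with treatment. Slamf6 and Id3 stood apart from the other members in the PBS libraries. Slamf6 had 1466 counts in PBS DCs, and the T cell library was 1.06-fold higher (95% interval 0.982 to 1.14) that includes 1. Id3 had 168 counts in PBS DCs, and the T cell library was 1.40-fold higher (95% interval 1.13 to 1.73.)

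Between the DC libraries, 5 of the 8 genes had at least 20 counts in one of them, and all 5 were called lower in the treated library, where 41.8% of the 10316 genes tested were lower and 30.2% higher. With a 4-fold threshold 3 of 5 were lower, where 31.9% of all genes were. The median of the 5 log2 ratios was -2.42, and that of all genes tested was -0.36. Satb1, Id3 and Cd27 passed the minimum through the PBS library alone, so the share of 5 of 5 is not support for a direction. Slamf6 went from 1466 to 155 counts, or from 61.6 to 11.0 CPM, a log2 ratio of -2.42 (95% interval -2.67 to -2.18.) Id3 went from 168 to 6 counts, a log2 ratio of -3.99 (95% interval -5.45 to -2.84.) Cd27 went from 217 counts to 0 and was 41.0-fold lower at the floor of 3 counts. The interval limit of Cd27 nearest to no change was 33.1-fold. For Satb1, with 65 and 13 counts, the log2 ratio was -1.5 (95% interval -2.49 to -0.63.) Slamf6 and Foxo1 were the members with at least 20 counts in both DC libraries. A correction for gene length moved Slamf6 to -3.05, Id3 to -3.02, Satb1 to -2.55 and Cd27 to -4.27, all with the same direction.

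Markers of other cells moved between the DC libraries as well. Of the 11 listed T cell markers, 8 had enough counts in DCs, and 5 were lower and 3 higher in the treated library. Their sum was 111 CPM with PBS and 88.5 CPM with treatment, with 3 markers at 0 in PBS DCs and 6 in treated DCs. Cd3e and Cd247 were at 0 in both DC libraries, while Cd3g went from 576 counts to 1 and Cd5 from 1 to 278. Of the B cell markers Cd79b went from 986 to 177 counts, with 5 of the 6 listed markers at 0 in PBS DCs. Plasmacytoid DC markers summed to 286 CPM with PBS and 594 CPM with treatment. Most of that sum came from Bst2, at 194 and 406 CPM, and Irf8, at 78.4 and 153 CPM. Of 5 measured, 3 were higher (Bst2, Tcf4 and Irf8), 1 lower and 1 neither. The lower one, Siglech, went from 166 counts to 0. Macrophage markers summed to 6109 CPM with PBS and 1728 CPM with treatment, with 4 of 9 lower and 0 higher. Conventional DC markers summed to 60499 and 8128 CPM, of which H2-Ab1 gave 49192 and 5892 CPM and Cd74 10707 and 1873 CPM. Of the 9 markers 4 were lower (H2-Ab1, Cd74, Cd209a and Batf3) and 3 higher (Flt3, Zbtb46 and Clec9a), with Batf3 going from 479 counts to 0. The part of these other cells in the lower Slamf6, Id3 and Cd27 of treated DCs was not tested.

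Other cell markers were also read in the T cell libraries. None of the 11 T cell markers was called, with log2 ratios from -0.37 (Cd3d) to 0.76 (Cd2) and a median of 0.22. Cd8a and Cd8b1 had ratios of 0.02 and 0.34. Regulatory T cell markers summed to 1806 and 1757 CPM, and 2 of 6 were lower: Foxp3, the lineage factor, went from 99 counts to 0, and Ikzf2 from 354 to 55. Most of that sum came from genes that were not called: Tnfrsf4 (915 and 619 CPM), Ctla4 (372 and 445), Tnfrsf18 (292 and 410) and Il2ra (202 and 280). Foxp3 gave 5.31 and 0 CPM of it and Ikzf2 19.0 and 2.98 CPM. Of the 2 CD4 T cell genes, Cd4 was called higher, from 17 to 252 counts, and Cd40lg, with 238 and 152 counts, had a log2 ratio of -0.66 and was not called. NK cell markers summed to 486 and 399 CPM, with 2 lower and 1 higher of 5 measured and Ncr1, a defining NK receptor, at 0 in both. Macrophage markers summed to 182 and 173 CPM and conventional DC markers to 382 and 285 CPM. Of the latter sum, H2-Ab1 gave 220 and 121 CPM and Cd74 128 and 100 CPM. Within both sums genes moved in opposite directions. Of 8 measured macrophage markers 1 was higher and 3 lower, with Fcgr1 going from 7 to 341 counts and Adgre1 from 334 to 0. Of 7 measured conventional DC markers 2 were higher and 2 lower. B cell markers summed to 2.47 and 7.47 CPM, with Ms4a1 and Pax5 at 0 in both, and tumour epithelial markers to 5.90 and 0.596 CPM. Plasmacytoid DC markers summed to 376 and 534 CPM, of which Bst2 gave 154 and 324 CPM; over the 5 measured, 1 was higher (Bst2), 2 were lower (Ccr9 and Tcf4) and the median log2 ratio was -0.54. Some called markers, such as Foxp3, Cd4 and Tcf4, passed the count minimum through a single library, which itself favoured the direction called. The part of these shifts in the Tcf7 and Foxo1 ratios was not tested.

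The neighbourhood of the 8 genes was followed in 9 lists of partners, relatives, targets and opposing genes, 105 genes in all, chosen with earlier results of these data known. In T cells 96 were measured, and 15 were called higher, 14 lower and 67 neither, which is 15.6% higher and 14.6% lower, where 18.3% and 25.4% of all genes tested were; in either direction 30.2% were called, where 43.7% of all genes were. Each list is given below with its most abundant members and those called.

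Of 10 measured partners of TCF-1 and LEF-1, 5 were called lower, 1 higher and 4 neither in treated T cells, with a median log2 ratio of -0.99 beside the -0.07 of all genes tested, of which 25.4% were called lower and 18.3% higher. Ctnnb1, which encodes the coactivator beta-catenin, went from 437 to 84 counts, a ratio of -2.39 (95% interval -2.75 to -2.05.) Tle4, a Groucho corepressor, went from 574 to 71 counts, a ratio of -3.03, whereas its relatives Tle5 and Tle3 had ratios of -0.01 and 0.45. Tcf7l2, another TCF family factor, had a ratio of -1.87 and Bcl9, a beta-catenin adaptor, with 56 and 4 counts, one of -3.82 (95% interval -5.75 to -2.38), which was -1.73 on the log2(CPM + 1) scale. Nkd1, a Wnt feedback inhibitor, went from 125 counts to 0, 42.0-fold lower at the floor of 3 counts, with 33.7-fold as the interval limit nearest to no change. Bcl9 and Nkd1 passed the count minimum through the PBS library alone, so the minimum itself favoured a lower ratio for both. Nkd1 entered the median of the list at its floor. With both genes in it, the list median of -0.99 is not support for a direction. On the log2(CPM + 1) scale, which shrinks ratios of low counts, other genes named from these lists also moved by over 1.5-fold: Id1 to 1.39, Igfbp4 to -3.50, Tcf4 to -2.83, Dapl1 to -1.23 and Nkd1 to -2.96. Pygo2, a partner of Bcl9, was the called gene in the other direction, from 98 to 314 counts. Thus Tcf7 was higher and Ctnnb1 lower in the same library.

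Among E and Id proteins 1 was higher, 1 lower and 3 neither of 5 measured. Id2, the effector-linked counterpart of Id3, was the most abundant at 244 and 260 FPKM and had a log2 ratio of 0.06. Id1 went from 17 to 75 counts, a ratio of 2.13. The E-protein genes Tcf3 and Tcf12 had ratios of 0.73 and -0.04, and Tcf4 went from 226 to 16 counts, a ratio of -3.83. Id1 passed the count minimum through treated T cells alone and Tcf4 through PBS T cells alone. For both genes the minimum itself favoured the direction called.

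Genes that regulate FOXO factors, with its relatives, had 2 higher, 1 lower and 6 neither of 9. Sgk1, a kinase that can phosphorylate FOXO factors, went from 799 to 2070 counts, a ratio of 1.36. Foxo4 was 2.17-fold higher, from 63 to 138 counts, and was not called after scaling to the T cell markers, at 0.99. Akt2, Pik3cd and Pik3r1, the most abundant of the list, had ratios of 0.61, 0.33 and -0.14. Of 10 genes known as FOXO targets, 0 were higher, 2 lower and 8 neither, with a median of -0.07. Il7r, the IL-7 receptor chain, and Ccr7, a lymph node homing receptor, had ratios of 0.17 and 0.65, and Bcl2, a survival factor, one of -0.32. Irs2 went from 233 to 34 counts, a ratio of -2.79, and Fbxo32 from 353 to 171, a ratio of -1.06 that was -0.99 after centring on the median of all genes and then not called.

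The list of SLAM family receptors and Sh2d adaptor genes had 1 higher, 0 lower and 7 neither of 8 measured. Ly9, a SLAM family receptor, had a log2 ratio of 1.0, from 704 to 1425 counts, and was not called in 5 of the settings tried, with values from 0.87 to 0.99. Sh2d2a, an adaptor with 104100 and 132536 counts, Cd48 and Slamf7 had ratios of 0.34, -0.35 and 0.27. Around CD27, its ligand gene Cd70 went from 258 to 119 counts, a ratio of -1.13 that was -0.65 after correction for gene length and then not called. Traf3, a signalling adaptor, went from 413 to 1720 counts, a ratio of 2.05 (95% interval 1.89 to 2.20.) Traf2 and Siva1, which bind CD27 signalling complexes, had ratios of 0.01 and -0.36.

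Relatives and partners of BACH2 and SATB1 had 2 higher, 0 lower and 6 neither of 8 measured. Both higher genes encode small Maf proteins, the dimer partners of BACH factors: Mafk went from 119 to 465 counts, a log2 ratio of 1.95, and Maff from 54 to 155, a ratio of 1.51. The AP-1 genes Junb, Batf and Jund had ratios of -0.04, -0.08 and -0.14.

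Of 22 other stem, naive and memory genes 21 were measured, with 4 higher, 3 lower and 14 neither and a median log2 ratio of 0.04. Myb, a factor of stem-like CD8 T cells, went from 46 to 507 counts and was 10.9-fold higher (95% interval on the log2 scale 3.01 to 3.92). Il6ra was 3.49-fold higher, Eomes 2.21-fold and Cd28 2.06-fold, and the Cd28 call was lost under upper-quartile scaling, at 0.95. Igfbp4, Klf3 and Dapl1, found in naive or memory cells, were lower: Igfbp4 went from 458 to 24 counts, Klf3 from 523 to 217 and Dapl1 from 25 to 0. Dapl1 passed the count minimum through the PBS library alone, so the minimum itself favoured a lower ratio for it. Icos, a costimulatory receptor, and Ets1, a T cell factor, had the most counts of the list and ratios of 0.04 and 0.70. In the opposing list of 20 effector and exhaustion genes 3 were higher, 1 lower and 16 neither, with a median of 0.34, near the 0.33 of the 8 stem-like and memory genes. Prdm1, the effector factor BLIMP-1, was 2.73-fold higher, from 388 to 1067 counts, and Tox, a factor of exhausted cells, was 3.36-fold lower, from 373 to 112 counts. Nr4a1 and Nr4a3, which respond to receptor signals, had ratios of 1.03 and 1.0, both lost as calls under upper-quartile scaling, at 0.93 and 0.91. Gzmb and Pdcd1 had ratios of 0.42 and 0.24.

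**Figure D3:**
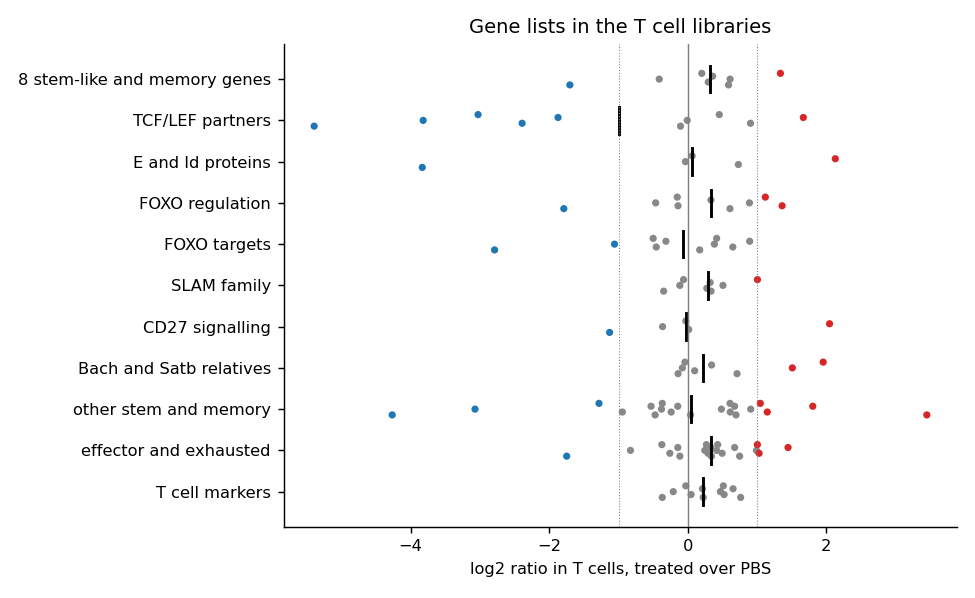
Log2 ratio of treated over PBS T cells for every measured gene of the 8-gene set, of 9 related lists and of the T cell markers, 1 library per group; each point is a gene, red and blue are genes called higher and lower, black bars are list medians and dotted lines mark 2-fold. The 8 stem-like and memory genes had a median of 0.33 and no T cell marker was called. The median of TCF/LEF partners lay at -0.99. That list includes Bcl9 and Nkd1, which passed the count minimum through the PBS library alone, so its median is not support for a direction.

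In DCs 85 of the 105 genes were measured, with 41 higher, 22 lower and 22 neither, which is 48.2% higher and 25.9% lower, where 30.2% of all genes tested were higher and 41.8% lower; in either direction 74.1% were called, where 72% of all genes were. The lists with most genes higher were the E and Id proteins (4 higher and 0 lower of 5), the FOXO regulators (5 and 1 of 8), the FOXO targets (5 and 3 of 8), the other stem and memory genes (9 and 3 of 16) and the effector and exhaustion genes (10 and 4 of 17). The TCF/LEF partners had 3 higher and 4 lower of 9, the SLAM family 2 and 4 of 9, the CD27 genes 1 and 1 of 5, and the BACH2 and SATB1 relatives 2 and 2 of 8. Some called genes passed the count minimum through a single library. Examples are Eomes, Gzmb and Ifng through treated DCs, and Akt2, Prdm1 and Tigit through PBS DCs. For such genes the minimum itself favoured the direction called, so these shares are not support for a direction. Ctnnb1 was lower in treated DCs as in treated T cells, from 185 to 43 counts. Myb had 0 counts in both DC libraries.

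The genes whose profile over the 4 libraries came nearest to that of Tcf7 were sought among 8357 genes with at least 100 counts in PBS T cells, by Euclidean distance of centred log2(CPM + 0.5). Over 4 libraries such a likeness is a description of few points. Lta, the cytokine lymphotoxin alpha, came nearest at a distance of 0.122, with 719 and 1760 counts in PBS and treated T cells and 0 in both DC libraries. Itm2a, Gimap6, Tg and Ccdc88c followed at distances from 0.433 to 0.526, with log2 ratios in T cells from 0.72 to 0.99.

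Short DNA motifs near the starts of the 8 genes were read from RefSeq promoter windows of build GRCm38.p6, which differs from the build of the tables. Each window holds 250 bases before and 50 after a start, and all 8 genes matched, with 16 windows. These sequences are shown because FOXO1 and TCF-1, the factors of the genes furthest apart in T cells, bind the letters searched. The FOXO core GTAAACA, searched on both strands, was found in 3.65% of the 32851 windows of all genes and, among the 8 genes, at the downstream one of the 2 listed Tcf7 starts (chr11:52282576-52282605, minus strand). The TCF/LEF core CTTTGA, read as TCAAAG on the other strand, was found in 16% of all windows, and in windows of Lef1 (chr3:131156102-131156131 and chr3:131156162-131156191, plus strand), Bach2 (chr4:32417330-32417359, plus strand) and Cd27 (chr6:125236995-125237024, minus strand). The 2 Lef1 matches lie in 1 of its 4 windows. The interferon-stimulated response element core was in 3.44% of all windows and in 0 of the 16. Each stretch of 30 bases is written 5′ to 3′ on the strand of the gene, with the match in capitals.
Tcf7, FOXO core: cctttataggaGTAAACAgacccccgccat
Lef1, TCF/LEF core: taaaatacatggTCAAAGgaaaataggtat
Lef1, TCF/LEF core: cattgtctgttcTCAAAGtcaggtcttgca
Bach2, TCF/LEF core: actgtgttgttcTCAAAGttgagtagagtt
Cd27, TCF/LEF core: ccacaactgcctTCAAAGgtcggtttacca
A match is a run of letters and not a measured site.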

How the data were processed

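RNA-seq was analysed from 4 libraries, 1 per group. The submitters' processing notes name build GRCm39 and the tools DESeq2 1.24.0, HISAT2 2.0.4, R 3.3.1 and RSEM 1.2.12; the sources used here do not assign steps to them. The deposited values are raw read counts per gene and FPKM, which the authors scaled to the listed gene length and library total. Columns were assigned to samples through the names of the read files listed for each sample, although the titles give the PBS samples another replicate number. The tables hold 4 further value columns, of 2 libraries that match no sample, and these were not used.

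Counts were scaled within each cell type by TMM (edgeR 4.0.16, R 4.3.3). Genes with a symbol and at least 20 counts in either library entered, and ratios carry exact conditional binomial (Clopper-Pearson) 95% intervals from scipy 1.17.1. A library at 0 was set to 3 counts. Calls needed a 2-fold ratio and an interval excluding 0. No p-value was computed. The method was tested on simulated data that held counting error alone, so that test does not cover other differences between libraries. Members and lists were chosen with earlier results of these data known. Genes named beside the 8 are the 3 with most counts of each list and those called in T cells; marker genes and others were named after their values were seen. A few genes of these lists are counted but not reported here by name. Alternatives were total-count, FPKM, DESeq2 1.42.0, upper-quartile and restricted TMM scaling, median centring, other count minimums, log2(CPM + 1), a length correction and other fold thresholds; scaling to T cell markers was chosen after seeing the data.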

Additional observations from a re-analysis of the deposited data

Results flagged for a closer look

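3 genes had ratios on opposite sides of 1 in the cell types, with counting intervals that exclude 1 in each; with 1 library per group the difference between cell types was not tested. Id3 had a log2 ratio of 0.59 in T cells and -3.99 in DCs. Satb1 had a ratio of 0.20 in T cells and -1.5 in DCs. Over the settings tried its T cell ratio went down to 0.07, below the lower limit of 0.12 in the main analysis, so its T cell side depends on the scaling. Cd27 had a ratio of 0.29 in T cells and -5.36 at the floor of 3 counts in DCs. These 3 genes passed the count minimum in DCs through the PBS library alone, so the minimum itself favoured a lower ratio there.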

How the results depend on the processing

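In T cells 1 gene higher and 1 lower held in all settings at the 2-fold threshold, and the Tcf7 ratio lay between 1.2 and 1.41 and that of Foxo1 between -1.83 and -1.63 on the log2 scale. At a 1.5-fold threshold 3 genes were higher in T cells, and at 4-fold 0 were higher and 0 lower. Scaling to T cell markers, chosen after seeing the data, moved the T cell median from 0.33 to 0.19. In DCs 5 genes were lower in the main analysis, 3 at a 4-fold threshold and 2 when both libraries had to hold at least 20 counts, which left 2 genes. The DC median of -2.42 was -2.07 after centring on the median of all genes, which moved every ratio up by the 0.36 by which all genes lay below 0, -3.21 with at least 100 counts, -3.02 after the length correction and -1.87 for those 2 genes. The Satb1 call in DCs was lost with log2(CPM + 1), at -0.92, and the Foxo1 call in DCs with centring, at -0.96. Among the 8 genes and the list genes named in T cells no called ratio changed direction in the settings tried; list genes in DCs and cell type markers were not run under them. No paired analysis was possible because each group has 1 library. With 0 to 13 counts in treated DCs, ratios of Id3, Satb1 and Cd27 are limited by depth.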
